A study of Mus musculus with 24 samples.

Results

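The genes followed here are 10 immediate early genes, namely Fos, Fosb, Fosl1, Fosl2, Jun, Junb, Egr1, Egr2, Egr3 and Ier2, picked by their symbols from the 26411 genes of the count tables. Their RNA was measured in neural stem and progenitor cells (NSPCs) grown from the dorsal telencephalon, the forerunner of the cerebral cortex, of mouse embryos at E12.5 (embryonic day). There were 24 libraries, with 4 in each of 6 groups formed by 3 Kat6a genotypes and the proliferating or differentiating condition. Kat6a encodes a histone acetyltransferase. Kat6a+/+ NSPCs were wildtype, Kat6a+/- NSPCs had 1 null allele and Kat6a-/- NSPCs had 2. The null allele, present in all cells of the embryo, lacks several exons, so that translation stops early within the catalytic domain. Embryos of the 3 genotypes came from crosses of heterozygous mice on a C57BL/6 background. The study's methods state that cells were frozen at passage 3 or 4, but not whether every culture was frozen before its use here. Proliferating NSPCs had been kept for 3 days with the growth factors FGF2 and EGF. In the study Kat6a+/+ NSPCs grew as floating neurospheres, while Kat6a+/- NSPCs made smaller colonies that tended to attach. Kat6a-/- NSPCs made few floating colonies and attached to the dish instead. The part of attachment in the results below was not tested. Differentiating NSPCs had been kept for 3 days on poly-L-ornithine and laminin with serum and without FGF2 or EGF. The labels of the libraries name 1 embryo each, and 6 embryo labels appear in both conditions. A Kat6a+/+ embryo of litter 4346 (proliferating) and one of litter 4364 (differentiating) carry labels that differ only in the order of 2 digits. They were taken as given, although a typing error would make them 1 embryo, and counting the labels as 1 litter in the fit of all 24 libraries changed no call of a member.

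Immediate early genes are transcribed within minutes of a stimulus and need no newly made protein to start. Growth factors and serum reach them through RAS and the ERK kinases, which act on ELK factors bound together with SRF at CArG boxes, and through CREB at cyclic AMP response elements (CREs). FOS proteins pair with JUN proteins through a leucine zipper to form the transcription factor AP-1, whereas EGR proteins bind GC-rich DNA through zinc fingers. In the brain these genes are best known as markers of recent activity in neurons, and in cultured cells they also respond to mitogens, stress and handling.

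Libraries held between 7826660 and 40838203 counted reads, and levels are given below as CPM, the usual read count relative to library size, with library totals scaled by the TMM method. Reads of the mitochondrial genome made up 3.04% to 4.38% of proliferating Kat6a+/+, 3.06% to 5.33% of Kat6a+/- and 4.62% to 6.34% of Kat6a-/- libraries, so that all Kat6a-/- libraries lay above all Kat6a+/+ libraries. In differentiating libraries they made up 1.84% to 2.16%, 1.67% to 2.28% and 1.88% to 2.32%. Their part in the results below was not tested. Kat6a RNA averaged 395 ± 16.7 CPM (SD, n = 4) in proliferating Kat6a+/+, 353 ± 16.5 in Kat6a+/- and 355 ± 24.6 in Kat6a-/- NSPCs. In differentiating NSPCs it averaged 267 ± 24.2, 236 ± 17.9 and 191 ± 43.1 CPM. The Kat6a-/- vs. Kat6a+/+ difference was -0.13 on the log2 scale when proliferating (SE 0.056, limma FDR = 0.1005) and -0.69 when differentiating (SE 0.083, FDR = 3.33e-05), the latter -0.41 without Kat6a-/- replicate 1 (FDR = 0.152) and -0.35 without replicate 3 (FDR = 0.250). Counts over the whole gene include exons outside the deletion and therefore do not check the genotype labels. The neural stem cell markers Sox2, Nes, Fabp7 and Pax6 were present in every group, with Sox2 at 308 to 344 CPM in proliferating and 404 to 499 CPM in differentiating Kat6a+/+ NSPCs. The neuron marker Stmn2 reached at most 3.94 CPM in any library. All neuron markers listed together reached 954 to 1238 CPM in proliferating and 533 to 710 CPM in differentiating Kat6a+/+ NSPCs. RNA was extracted with a different kit in each condition, so kit and condition cannot be told apart. Y-linked reads were present in 3 of 4 Kat6a+/+, 1 of 4 Kat6a+/- and 1 of 4 Kat6a-/- libraries of each condition, so that sex was not balanced between genotypes. In the fit of differentiating NSPCs each library had a quality weight, and Kat6a-/- replicate 3 alone carried 69.0% of the weight of its group. The results below that rest on it are given without it too. All values come from mixed cultures, in which fewer cells of a type and less RNA per cell cannot be told apart.

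The DNA just upstream of the start of 5 of these genes is shown with its matches to 6 motifs. The CArG box, CRE core, AP-1 site and EGR site are elements through which growth factors and the immediate early proteins themselves are known to act. The CCAAT box and the TATA box are not among those elements. Each line gives the 250 bases before the start from RefSeq (GRCm38.p6), 5′ to 3′ on the strand of the gene, at chr12:85473640-85473889, plus strand for Fos, chr10:67537619-67537868, plus strand for Egr2, chr5:32136222-32136471, plus strand for Fosl2, chr4:95052223-95052472, minus strand for Jun and chr8:84978749-84978998, minus strand for Junb. Capitals mark the matches to the 6 motifs searched on both strands, which were the CArG box, the AP-1 site TGANTCA, the CRE core TGACGT, the EGR site GCGNGGGCG, the CCAAT box and the TATA box TATAAA.
Fos: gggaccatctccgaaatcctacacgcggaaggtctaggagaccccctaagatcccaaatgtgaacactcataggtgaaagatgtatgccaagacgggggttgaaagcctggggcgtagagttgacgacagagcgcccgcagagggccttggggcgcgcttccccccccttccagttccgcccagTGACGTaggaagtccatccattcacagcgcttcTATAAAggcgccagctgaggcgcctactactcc
Egr2: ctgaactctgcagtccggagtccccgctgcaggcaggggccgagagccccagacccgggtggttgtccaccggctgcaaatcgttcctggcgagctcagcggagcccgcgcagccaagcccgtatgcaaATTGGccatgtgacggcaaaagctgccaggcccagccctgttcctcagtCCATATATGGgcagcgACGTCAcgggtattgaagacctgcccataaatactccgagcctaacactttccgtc
Fosl2: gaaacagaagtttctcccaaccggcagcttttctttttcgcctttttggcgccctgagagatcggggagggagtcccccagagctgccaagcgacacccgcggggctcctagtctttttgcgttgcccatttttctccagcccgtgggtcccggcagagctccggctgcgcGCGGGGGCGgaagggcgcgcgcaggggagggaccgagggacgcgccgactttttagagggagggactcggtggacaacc
Jun: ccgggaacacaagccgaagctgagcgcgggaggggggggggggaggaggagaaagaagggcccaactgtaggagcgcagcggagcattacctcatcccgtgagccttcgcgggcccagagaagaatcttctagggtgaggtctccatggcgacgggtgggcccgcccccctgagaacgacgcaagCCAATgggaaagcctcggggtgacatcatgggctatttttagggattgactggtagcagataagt
Junb: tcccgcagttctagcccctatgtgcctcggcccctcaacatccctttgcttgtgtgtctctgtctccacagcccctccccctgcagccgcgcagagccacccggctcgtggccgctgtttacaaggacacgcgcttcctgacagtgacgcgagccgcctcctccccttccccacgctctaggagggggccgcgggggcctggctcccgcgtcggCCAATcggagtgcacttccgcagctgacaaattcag

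Fos carried a CRE core 66 to 61 bases and a TATA box 33 to 28 bases before its start. Of the 6 members with an entry in the table Egr2 had the most matches, with a CArG box 72 to 63 bases, a CRE core on the other strand 56 to 51 bases and a CCAAT box on the other strand 121 to 117 bases before its start. Egr2 had 5 start entries in the table and each of the others 1, and the window of only 1 start was searched per gene. Fosl2 had a single match, an EGR site 79 to 71 bases upstream, and Fosb, not printed, had one 50 to 42 bases upstream. Jun and Junb each had only a CCAAT box, at 65 to 61 and 36 to 32 bases. The AP-1 letters TGANTCA were not in any of these windows or in that of Fosb, and other forms of the AP-1 site were not searched. Over 32851 start sites in the same table a CArG box was found in 1.47%, a CRE core in 6.47%, an EGR site in 4.70%, TGANTCA in 6.75%, a CCAAT box in 33.8% and a TATA box in 12.4% of windows of this length. A match is a description of the letters, not of a bound site. DNA outside these windows was not searched, so a window without an element does not show that the gene lacks it.

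Per kilobase of transcript, Egr1 and Jun were the most abundant members in proliferating Kat6a+/+ NSPCs, with 104 ± 75.6 and 90.9 ± 11.3 RPKM, which is CPM divided by the length of the gene in kilobases (SD, n = 4). Ier2 followed at 29.2 ± 9.50, Fos at 16.7 ± 7.43, Junb at 14.01 ± 2.53, Fosl2 at 6.26 ± 3.05, Egr2 at 3.94 ± 1.11 and Egr3 at 2.67 ± 1.14 RPKM. Egr1 and Jun, Fos and Junb, and Fosl2 and Egr2 were the neighbours in this order, down to Egr3, whose means differed by less than the larger of their SDs. In differentiating Kat6a+/+ NSPCs Jun led at 40.3 ± 4.93 RPKM, ahead of Fosl2 at 10.1 ± 6.06, Ier2 at 8.65 ± 1.76, Fos at 6.48 ± 2.10, Junb at 5.81 ± 2.37 and Egr1 at 1.94 ± 0.413. Here Fosl2 and Ier2, and Fos and Junb, differed by less than the larger SD. In differentiating Kat6a-/- NSPCs the order was Jun at 59.0 ± 5.74, Fosl2 at 25.9 ± 7.77, Junb at 13.5 ± 3.50, Fos at 11.05 ± 2.90, Ier2 at 8.13 ± 0.988 and Egr1 at 5.55 ± 2.96 RPKM, and from Junb down Junb and Fos, and Ier2 and Egr1, differed by less than the larger SD. Fosb averaged at most 0.387 RPKM in a group. Fosl1 had between 0 and 7 reads in each of the 24 libraries and passed the filter on low counts in no comparison. A count of 0 allows up to 3 reads, which came to at most 0.387 CPM in any library and covers counting error only.

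**Figure D1:**
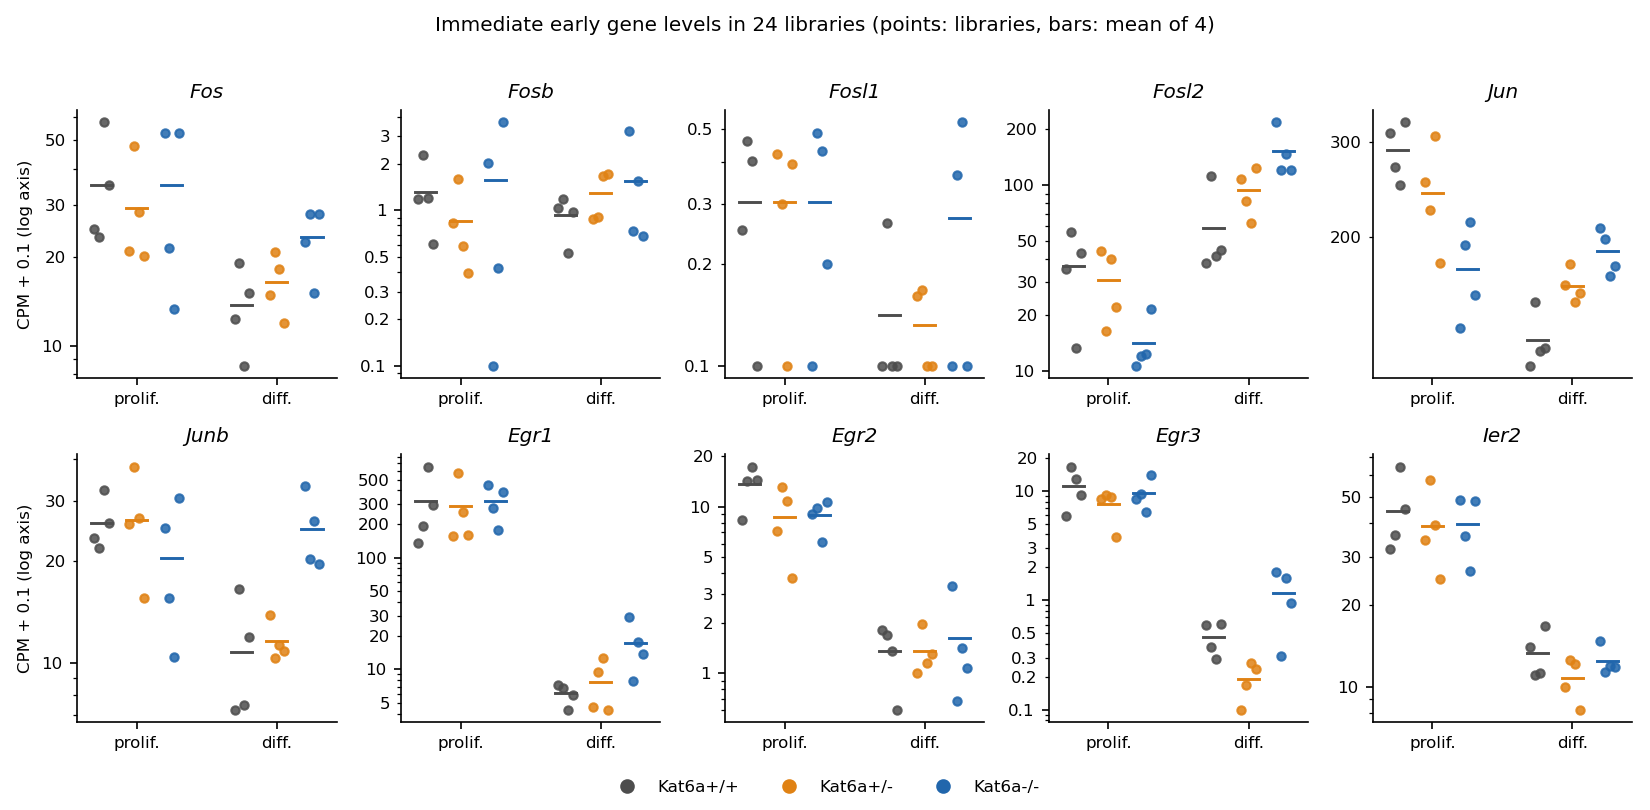
Level of each of the 10 genes in the 24 libraries, as CPM + 0.1 on a log axis with its own range in each panel, with proliferating (prolif.) and differentiating (diff.) NSPCs on the horizontal axis. Points are libraries and bars the mean of 4; Fosl2 in differentiating Kat6a-/- NSPCs (121 to 218 CPM) sat above all 4 Kat6a+/+ libraries (37.9 to 112.1 CPM), and Egr1, Egr2, Egr3 and Ier2 were lower in every differentiating than in every proliferating library.

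The first question was how these genes respond to the loss of KAT6A in each condition. Of the 9 members tested in proliferating Kat6a-/- vs. Kat6a+/+ NSPCs, only Jun changed, and it was downregulated, while 30.0% of all 12276 genes tested were differentially expressed and 13.8% were downregulated. Of the 8 members tested in differentiating NSPCs, 5 were upregulated in Kat6a-/- vs. Kat6a+/+ NSPCs (Fosl2, Junb, Egr1, Jun and Fos) and none was downregulated, while 54.4% of all 13339 genes tested were differentially expressed and 26.7% were upregulated. The median log2 fold change of the members was -0.43 in proliferating and 0.76 in differentiating NSPCs, while that of all genes lay within 0.05 of 0 in both. The median in proliferating NSPCs rested on single libraries, and was -0.065 without Kat6a-/- replicate 2, -0.098 without replicate 3 and -0.60 without replicate 4. Without Kat6a-/- replicate 1 only 9.01% of genes in differentiating NSPCs were differentially expressed by limma, and without replicate 3 only 6.99%. In either of these fits Jun was the only member called.

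**Figure D2:**
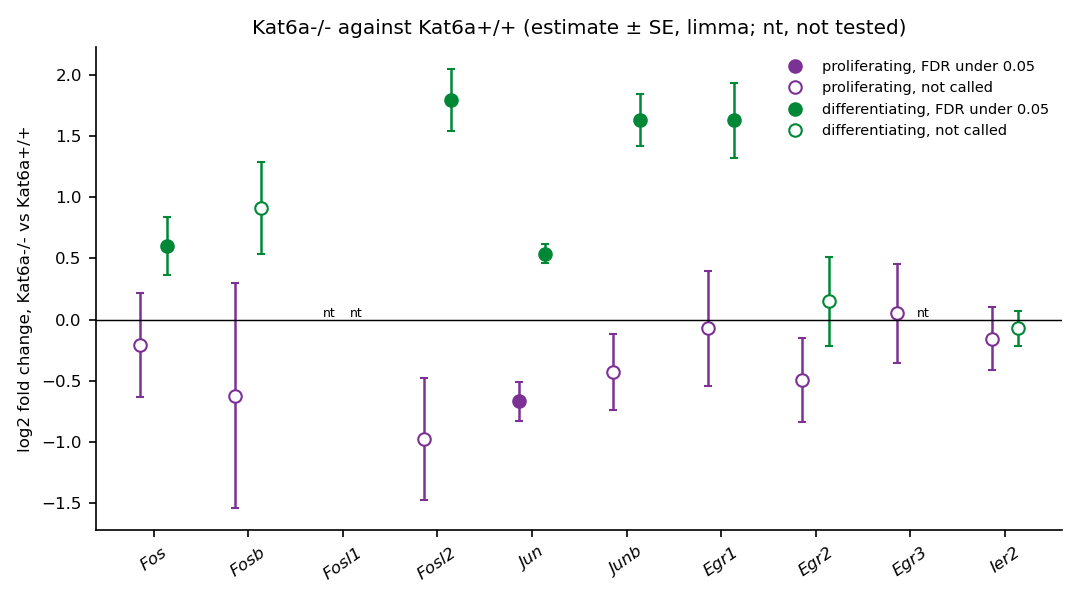
Log2 fold change (vertical axis) of each member (horizontal axis) in Kat6a-/- vs. Kat6a+/+ NSPCs, with bars of 1 standard error (SE) from limma and filled symbols for a false discovery rate (FDR) under 0.05; nt marks genes that were not tested. In differentiating NSPCs Fosl2, Junb and Egr1 lie near 1.79, 1.63 and 1.63, and in proliferating NSPCs only Jun, at -0.67, is filled.

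Fosl2, which encodes the AP-1 subunit FRA-2, had the widest range of the FOS family. In differentiating NSPCs it stood at 37.9, 112.1, 41.2 and 44.6 CPM in Kat6a+/+ replicates 1 to 4, at 108, 81.5, 62.7 and 124 in Kat6a+/- and at 218, 121, 148 and 121 in Kat6a-/-. Each of the Kat6a-/- libraries was above all Kat6a+/+ libraries, of which replicate 2 was far higher than the other 3. Such a separation in this direction was found for 12.2% of all genes. Fosl2 (mm39 chromosome 5, 32292707 to 32315186, plus strand) was upregulated 3.47-fold in the limma fit (log2 fold change 1.79, SE 0.25, FDR = 0.000117). In litter 4633, which held both genotypes, it stood at 41.2 CPM in the Kat6a+/+ embryo and at 218 and 121 in the Kat6a-/- embryos, and in litter 4746 at 44.6 and 148. The call was lost without Kat6a-/- replicate 1 (log2 fold change 1.57, limma FDR = 0.0754) and without replicate 3 (1.71, FDR = 0.0874), although the size of the change was similar.

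In proliferating NSPCs the Kat6a-/- mean was instead the lowest of the 3. Fosl2 stood at 35.1, 55.6, 13.1 and 43.1 CPM in Kat6a+/+, at 44.2, 16.2, 40.1 and 21.97 in Kat6a+/- and at 10.5, 11.9, 12.2 and 21.3 in Kat6a-/- libraries. Kat6a+/+ replicate 3 lay inside the Kat6a-/- range and the other Kat6a+/+ libraries above it. The difference did not pass the test (log2 fold change -0.98, SE 0.50, FDR = 0.158). It did without that library (log2 fold change -1.46, limma FDR = 0.0241), with edgeR (-1.36, FDR = 0.0294) and with DESeq2 (-1.36, FDR = 0.0178), which called 27.9%, 27.2% and 31.7% of all genes.

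Fos (mm39 chromosome 12, 85520658 to 85524047, plus strand), the founding member of the family, was variable in proliferating NSPCs, with 24.8, 23.4, 57.3 and 35.1 CPM in Kat6a+/+, 20.8, 47.6, 28.3 and 20.1 in Kat6a+/- and 52.9, 21.4, 13.2 and 53.0 in Kat6a-/- libraries. High and low libraries occurred in every genotype, and the Kat6a-/- vs. Kat6a+/+ difference did not pass the test (log2 fold change -0.21, SE 0.42, FDR = 0.739). In differentiating NSPCs Fos stood at 12.2, 19.0, 8.45 and 15.0 CPM in Kat6a+/+, at 14.8, 20.7, 18.2 and 11.8 in Kat6a+/- and at 22.5, 27.9, 14.9 and 27.8 in Kat6a-/- libraries. Of the Kat6a-/- libraries 3 exceeded every Kat6a+/+ library, and replicate 3 lay inside the Kat6a+/+ range. The upregulation was near the threshold (log2 fold change 0.60, SE 0.24, FDR = 0.0482) and held in 2 of 12 fits with a library left out, without Kat6a+/+ replicate 2 or 4, over a range of 0.32 to 1.17. It was also lost in edgeR (0.77, FDR = 0.0537) and with unscaled library totals (0.42, limma FDR = 0.126), and it was kept in DESeq2 (0.78, FDR = 0.0217). Of all genes 54.8% and 52.7% were called without these Kat6a+/+ libraries, 24.4% in edgeR, 62.3% with unscaled totals and 30.6% in DESeq2.

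Fosb (mm39 chromosome 7, 19036621 to 19043976, minus strand), a FOS relative with a short splice form known from neurons, was near the limit of detection, with 0 to 43 reads in proliferating and 9 to 46 reads in differentiating libraries. Its log2 fold change in Kat6a-/- vs. Kat6a+/+ NSPCs was -0.62 (SE 0.92, FDR = 0.636) when proliferating. In differentiating NSPCs it was 0.91 (SE 0.38, FDR = 0.0586), and an FDR under 0.05 was reached with Kat6a-/- replicate 2 left out (0.89, limma FDR = 0.00871, 70.6% of all genes called). The same held with Kat6a-/- replicate 4 left out (0.98, FDR = 0.0183, 61.8% of genes) and with Kat6a+/+ replicate 4 left out (1.09, FDR = 0.0401).

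Jun encodes the AP-1 subunit that can also pair with itself, and it was the only member called in Kat6a-/- vs. Kat6a+/+ NSPCs of both conditions. In proliferating NSPCs it stood at 313, 269, 249.8 and 326 CPM in Kat6a+/+, at 253, 224, 308 and 179 in Kat6a+/- and at 135, 193, 213 and 156 in Kat6a-/- libraries. All Kat6a-/- libraries were below all Kat6a+/+ libraries, a separation shared with 17.6% of genes, and the Kat6a+/- libraries overlapped with both. Jun (mm39 chromosome 4, 94937271 to 94940459, minus strand) was downregulated to 0.629 of the Kat6a+/+ level (log2 fold change -0.67, SE 0.16, FDR = 0.00778). It was called in all 12 fits with a library left out (-0.76 to -0.55), but in a fit that treated litter as fixed the limma FDR was 0.0524 at a log2 fold change of -0.61, with 15.8% of all genes called. Within litter 4633 the Kat6a+/+ library had 249.8 CPM against 135 and 193 in Kat6a-/-, and within litter 4746 the values were 326 and 213.

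In differentiating NSPCs Jun moved the other way. It stood at 115, 151, 123 and 124 CPM in Kat6a+/+, at 163, 178, 151 and 158 in Kat6a+/- and at 208, 198, 169 and 177 in Kat6a-/- libraries. All Kat6a-/- libraries exceeded all Kat6a+/+ libraries, a separation shared with 12.2% of genes, and the Kat6a+/- libraries reached into the Kat6a-/- range. The Kat6a+/- libraries were also above all Kat6a+/+ libraries, but replicate 3 only just (151.4 CPM against 151.3 in Kat6a+/+ replicate 2). The upregulation was 1.45-fold (log2 fold change 0.54, SE 0.079, FDR = 0.000132), and Jun was the only 1 of the 5 members to be called in each of the 12 fits that left out a library, where it ranged over 0.46 to 0.70. With unscaled library totals, which lowered the median of all genes from -0.016 to -0.17, it was 0.38 (limma FDR = 0.000650). Jun lies whole within the antisense gene Junos, which overlaps it by 3189 bases, and whether the counting used strand is not given in the sources used here, so reads of the 2 genes may not have been told apart.

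Junb, a JUN relative that also pairs with FOS proteins, did not separate the genotypes in proliferating NSPCs, with 23.3, 21.7, 32.3 and 25.8 CPM in Kat6a+/+, 25.6, 37.9, 26.6 and 15.4 in Kat6a+/- and 24.9, 15.5, 10.3 and 30.5 in Kat6a-/- libraries (log2 fold change -0.43, SE 0.31, FDR = 0.312 for Kat6a-/- vs. Kat6a+/+). In differentiating NSPCs it stood at 7.16, 16.4, 7.38 and 11.8 CPM in Kat6a+/+, at 13.7, 10.2, 11.2 and 10.8 in Kat6a+/- and at 33.3, 20.1, 26.2 and 19.4 in Kat6a-/- libraries. Every Kat6a-/- library was above every library of the other genotypes, which overlapped with each other. Such a separation was found for 12.2% of all genes against Kat6a+/+ and for 6.74% against Kat6a+/-. Junb (mm39 chromosome 8, 85701113 to 85705359, minus strand) was upregulated 3.10-fold (log2 fold change 1.63, SE 0.22, FDR = 7.14e-05). In litter 4633 the values were 7.38 CPM in Kat6a+/+ against 33.3 and 20.1 in Kat6a-/-, and in litter 4746 they were 11.8 and 26.2. Without Kat6a-/- replicate 1 the log2 fold change was 1.41 (limma FDR = 0.0621), and without replicate 3 it was 1.46 (FDR = 0.0830). On the opposite strand Junb overlaps the protein-coding gene Prdx2 by 1238 bases and the long non-coding RNA gene Gm65321 by 288 bases. Fosl2 overlaps the long non-coding RNA gene Gm72529 by 4176 bases and Egr2 the long non-coding RNA gene Gm66196 by 565 bases. As the strand setting of the counting is not given, reads of these overlapping genes may not have been told apart either.

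Egr1, the zinc finger factor through which the EGR family is best known, varied widely within each proliferating group. It stood at 136, 192, 653 and 298 CPM in Kat6a+/+, at 157, 575, 257 and 158 in Kat6a+/- and at 443, 275, 175 and 383 in Kat6a-/- libraries. The genotypes overlapped over the whole range (log2 fold change -0.071, SE 0.47, FDR = 0.923 for Kat6a-/- vs. Kat6a+/+). In differentiating NSPCs the values were 7.10, 6.72, 4.25 and 5.83 CPM in Kat6a+/+, 4.46, 9.36, 12.46 and 4.24 in Kat6a+/- and 29.3, 7.80, 17.5 and 13.5 in Kat6a-/- libraries. The Kat6a-/- libraries all exceeded the Kat6a+/+ libraries, as for 12.2% of genes, replicate 2 only slightly, while the Kat6a+/- libraries overlapped with both. The upregulation was 3.09-fold (log2 fold change 1.63, SE 0.31, FDR = 0.000791). It was lost without Kat6a-/- replicate 1 (log2 fold change 1.01, limma FDR = 0.314), without replicate 3 (1.13, FDR = 0.331) and when litter was a fixed effect (1.85, FDR = 0.0611, 13.4% of all genes called).

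Egr2 (mm39 chromosome 10, 67371305 to 67378018, plus strand), known for its roles in hindbrain segments and in myelinating Schwann cells, ranged over 8.22 to 17.3 CPM in proliferating Kat6a+/+, 3.61 to 12.9 in Kat6a+/- and 6.02 to 10.6 in Kat6a-/- libraries, and no library of differentiating NSPCs exceeded 3.23 CPM. The Kat6a-/- vs. Kat6a+/+ differences did not pass the test in proliferating (log2 fold change -0.50, SE 0.34, FDR = 0.288) or differentiating NSPCs (log2 fold change 0.15, SE 0.36, FDR = 0.752). Egr3 (mm39 chromosome 14, 70314350 to 70320063, plus strand), a relative of Egr1, ranged over 5.74 to 16.6, 3.71 to 9.12 and 6.35 to 13.9 CPM when proliferating (log2 fold change 0.052, SE 0.40, FDR = 0.935). In differentiating NSPCs Egr3 had 9, 5, 4 and 12 reads in Kat6a+/+, 0, 1, 3 and 2 in Kat6a+/- and 25, 4, 25 and 13 in Kat6a-/- libraries, too few to pass the filter with all libraries. Without the filter on low counts, when 34.2% and 17.6% of all genes were called, it was called in Kat6a-/- vs. Kat6a+/+ (limma, log2 fold change 1.52, FDR = 0.0162) and in Kat6a-/- vs. Kat6a+/- (2.95, FDR = 0.00222), but Kat6a-/- replicate 2 held no more reads than the lowest Kat6a+/+ library. It passed the filter in 9 of 12 fits with a library left out, which called 43.9% to 70.6% of all genes, and was called in each of them in Kat6a-/- vs. Kat6a+/+ (1.37 to 1.89, limma FDR of at most 0.0209). In the same fits it was called in Kat6a-/- vs. Kat6a+/- (2.60 to 3.47), beside 25.9% to 55.0% of all genes. Egr3 passed the filter there only through the Kat6a-/- libraries with 25, 25 and 13 reads. Each of these fits therefore kept all of those libraries, and its calls add no support. Ier2 (mm39 chromosome 8, 85387960 to 85389483, minus strand), which encodes a nuclear protein and is induced by growth factors, ranged over 32.0 to 64.5, 24.8 to 57.5 and 26.5 to 48.7 CPM in proliferating and 10.98 to 16.6, 8.13 to 12.4 and 11.3 to 14.6 CPM in differentiating Kat6a+/+, Kat6a+/- and Kat6a-/- NSPCs. It overlapped between genotypes in both conditions, with log2 fold changes of -0.16 (SE 0.26, FDR = 0.675) and -0.071 (SE 0.14, FDR = 0.695) in Kat6a-/- vs. Kat6a+/+.

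**Figure D3:**
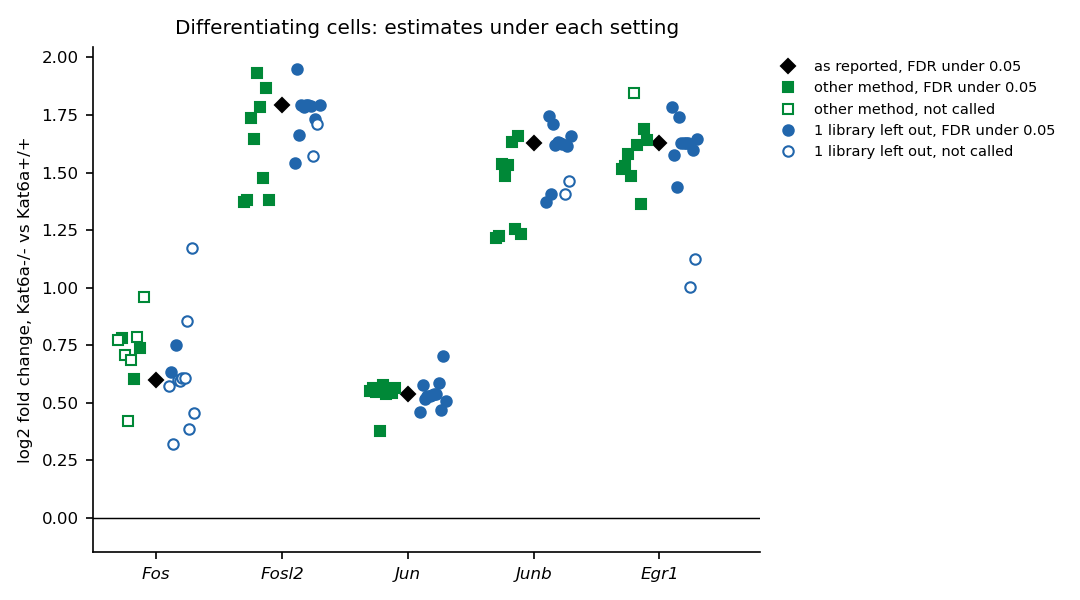
Log2 fold change in differentiating Kat6a-/- vs. Kat6a+/+ NSPCs (vertical axis) of the 5 called members (horizontal axis) as reported (diamond), with another method or model (squares) and with 1 library left out (circles); open symbols did not reach an FDR under 0.05. Every estimate is above 0, Jun is filled throughout, and the open circles of Fosl2, Junb and Egr1 are the fits without Kat6a-/- replicate 1 or 3.

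Whether the Kat6a-/- effect differed between the conditions was tested as an interaction in a fit of all 24 libraries. Of the 9 members tested 3 passed, each with the more positive effect in differentiating NSPCs, beside 13.9% of the 13590 genes tested in either direction and 6.36% in this direction. The log2 fold change of Fosl2 in Kat6a-/- vs. Kat6a+/+ was higher in differentiating than in proliferating NSPCs by 2.79 (SE 0.68, limma FDR = 0.00868). The difference was 1.29 for Jun (SE 0.21, FDR = 0.000399) and 1.63 for Junb (SE 0.42, FDR = 0.0133). These 3 genes were called in each of the 24 fits that left out a library and in every other setting tried, which included the fits without Kat6a-/- replicate 1 or 3. For Egr1 the difference was 1.21 (SE 0.88, FDR = 0.380) and for Fos 0.80 (SE 0.55, FDR = 0.348), so their changes in differentiating NSPCs were not shown to differ from those in proliferating NSPCs.

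Heterozygous NSPCs were compared with the same Kat6a+/+ libraries, so the comparisons are not independent. No member and 0% of all genes were differentially expressed by limma in Kat6a+/- vs. Kat6a+/+ NSPCs of either condition, at 912 genes with an unadjusted p under 0.05 in proliferating and 1926 in differentiating NSPCs. edgeR gave 0 genes in both and DESeq2 28 and 8. The members with the smallest p were Egr2 (log2 fold change -0.59, SE 0.32, limma FDR = 0.713) and Jun (-0.21, SE 0.16, FDR = 0.823) in proliferating NSPCs. In differentiating NSPCs they were Jun (log2 fold change 0.40, SE 0.083, FDR = 0.160) and Fosl2 (log2 fold change 1.11, SE 0.27, FDR = 0.164). All 4 Kat6a+/- libraries had more Jun RNA than the highest Kat6a+/+ library, the lowest only just (151.4 against 151.3 CPM). Such a separation was found for 1.42% of genes, whereas for Fosl2 Kat6a+/+ replicate 2 lay inside the Kat6a+/- range. Without that library both were called (Fosl2 1.27, limma FDR = 0.0110, and Jun 0.44, FDR = 0.0216) together with 1.08% of all genes, as they were without Kat6a+/- replicate 3 (Fosl2 1.27, FDR = 0.0337, and Jun 0.41, FDR = 0.0337) together with 2.23%, among them Egr3 (-1.80, FDR = 0.0477). Egr3 had 0, 1 and 2 reads in the Kat6a+/- libraries kept there, against 9, 5, 4 and 12 in Kat6a+/+. It passed the filter of that fit only through the Kat6a-/- libraries, and its call adds no support. The interaction of the Kat6a+/- effect with condition passed for no member and 0% of genes in limma, edgeR and DESeq2, with 412 genes at an unadjusted limma p under 0.05, among them Jun at 0.63 (SE 0.21, FDR = 1.00). Fosl2 was next at 1.01 (SE 0.56, limma FDR = 1.00).

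Against Kat6a+/- NSPCs, proliferating Kat6a-/- NSPCs showed no called member beside 14.8% of all genes. Jun came nearest (log2 fold change -0.46, SE 0.15, FDR = 0.0589), and it passed in the fits that left out Kat6a-/- replicate 3 (-0.52, limma FDR = 0.0489, 15.2% of genes called) or Kat6a+/- replicate 4 (-0.59, FDR = 0.0213, 17.8% of genes called). Fosl2 had the next smallest p (log2 fold change -0.96, SE 0.49, limma FDR = 0.198). Among differentiating libraries 2 of 8 members were upregulated in Kat6a-/- vs. Kat6a+/-, beside 37.5% of all genes that changed and 19.1% that were upregulated. These were Junb (log2 fold change 1.10, SE 0.25, FDR = 0.00585), with all Kat6a-/- libraries above all Kat6a+/- libraries as for 6.74% of genes, and Egr1 (log2 fold change 1.59, SE 0.36, FDR = 0.00549). Without Kat6a-/- replicate 1 neither was called (Junb 0.88, limma FDR = 0.399, and Egr1 0.92, FDR = 0.544), nor without replicate 3 (Junb 0.94, FDR = 0.444, and Egr1 1.04, FDR = 0.579), and Egr1 also failed without Kat6a+/- replicate 1 (0.95, FDR = 0.0964). Without Kat6a+/+ replicate 2, which is in neither group but bears on the filter, the weights and the shared estimate of the spread, 13467 genes were tested in place of 13339 and Fosl2 was called as well (0.68, FDR = 0.0179). In these 4 fits 2.57%, 1.81%, 25.9% and 36.5% of all genes were called.

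The second question was how the members change when NSPCs leave FGF2 and EGF and differentiate. In Kat6a+/+ NSPCs 7 of 9 members were lower in differentiating than in proliferating cells and none was higher, beside 72.9% of all genes tested that changed and 36.2% that were lower. The EGR genes fell the furthest, Egr1 from 319.7 ± 232 to 5.97 ± 1.27 CPM. Its log2 fold change was -5.56 (SE 0.70, FDR = 4.08e-07) in limma, that of Egr3 -4.60 (SE 0.73, FDR = 9.32e-06) and that of Egr2 -3.34 (SE 0.49, FDR = 3.07e-06). Egr3 had 4 to 12 reads in differentiating Kat6a+/+ libraries and passed the filter of this fit only through the proliferating libraries, where it was high. Its estimate is therefore not a bound, and its calls here and in the other genotypes add no support to the counts of members that fell. Ier2 (-1.64), Junb (-1.29), Fos (-1.23) and Jun (-1.17) fell less, with an FDR of at most 0.00676. Fosl2 was the exception among the abundant members, at 0.63 (SE 0.38, FDR = 0.142), and Fosb was at -0.54 (SE 0.68, FDR = 0.483).

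In Kat6a+/- NSPCs Fosl2 rose by 1.64 (SE 0.41, FDR = 0.00136) on the log2 scale, and 6 members fell, beside 69.7% of all genes that changed, 35.4% upward and 34.2% downward. They were Egr1 at -5.14 (SE 0.71, FDR = 2.09e-06), Egr2 at -2.66 (SE 0.55, FDR = 0.000223), Ier2 at -1.82 (SE 0.29, FDR = 9.96e-06), Junb at -1.13 (SE 0.31, FDR = 0.00286), Jun at -0.54 (SE 0.15, FDR = 0.00246) and Egr3. The estimate for Egr3 depends on how 0 to 3 reads in the differentiating libraries are treated and is not a bound. In Kat6a-/- NSPCs, where 69.2% of all genes changed, 35.8% upward and 33.5% downward, Fosl2 rose 10.7-fold, by 3.42 (SE 0.56, FDR = 1.48e-05), from 13.97 ± 4.96 to 152 ± 45.5 CPM. Egr1 (-4.35), Egr3 (-3.47), Egr2 (-2.81) and Ier2 (-1.66) fell at an FDR of at most 0.000131. Jun at 0.13 (SE 0.15, FDR = 0.454), Junb at 0.34 (SE 0.31, FDR = 0.335) and Fos at -0.42 (SE 0.39, FDR = 0.348) did not pass the test in Kat6a-/- NSPCs. Fos was called there only without proliferating Kat6a-/- replicate 3 (-0.85, limma FDR = 0.0493), when 64.3% of all genes were called. The calls of the other members were the same in each fit with a library left out.

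**Figure D4:**
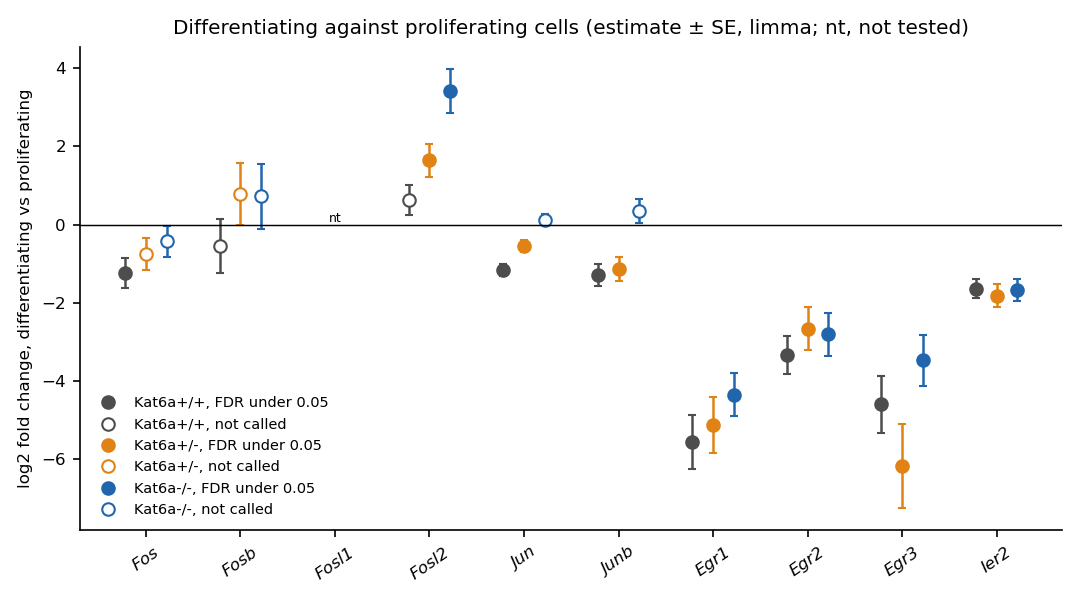
Log2 fold change of each member in differentiating vs. proliferating NSPCs of each genotype (vertical axis), with bars of 1 SE from limma and filled symbols for an FDR under 0.05; nt marks Fosl1, which was not tested. The EGR genes and Ier2 are below 0 in the 3 genotypes, and Fosl2 goes from 0.63 in Kat6a+/+ to 1.64 in Kat6a+/- and 3.42 in Kat6a-/- NSPCs.

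The members were also compared across libraries of the same group, by the deviations of their log2 CPM from the 6 group means in 24 libraries. Among 36 pairs of the 9 members 27 had a positive correlation, the median r was 0.42, and 13 pairs passed an adjusted p of 0.05 by Pearson's r, all with a positive r. Of the 13, Egr2 with Egr3 and Egr2 with Ier2 did not pass by Spearman's rho (adjusted permutation p = 0.0996 and 0.0799). Several of the 13 held Fosb or Egr3, with Fosb near the limit of detection in both conditions and Egr3 in differentiating NSPCs. Egr1 and Ier2 moved together the most (Pearson's r = 0.86, Spearman's rho = 0.84, adjusted permutation p = 0.000360 and 0.000720), with the unadjusted p for r at the smallest value that 100000 permutations can give. Fos and Ier2 (Pearson's r = 0.78, Spearman's rho = 0.71, adjusted permutation p = 0.00576 and 0.0139), Fos and Junb (Pearson's r = 0.72, Spearman's rho = 0.62, adjusted permutation p = 0.0171 and 0.0496), Egr1 and Egr2 (Pearson's r = 0.69, Spearman's rho = 0.71, adjusted permutation p = 0.00819 and 0.00648) and Fos and Egr1 (Pearson's r = 0.67, Spearman's rho = 0.60, adjusted permutation p = 0.00819 and 0.0352) had the next highest r. The permutations took the 24 libraries as independent, although libraries share litters within and between groups, 9 of them litter 4633, and 6 embryos occur in both conditions. Without the 2 libraries farthest from the median of the gene named first in each pair, r was 0.78 for Egr1 and Ier2, 0.73 for Fos and Ier2, 0.60 for Fos and Junb, 0.66 for Egr1 and Egr2 and 0.65 for Fos and Egr1. Libraries in which the other gene was extreme were kept. Fos and Ier2 were at 0.92 in proliferating and 0.35 in differentiating NSPCs, Fos and Egr1 at 0.88 and 0.23 and Egr1 and Ier2 at 0.95 and 0.68, each over 12 libraries, whereas Fos and Jun were at -0.48 and 0.58. The difference between conditions was not tested.

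None of the 13 pairs held Fosl2 or Jun. Between these r was 0.47 (rho = 0.52, adjusted permutation p = 0.0973 and 0.0799), Fosl2 had its lowest r with Ier2 (-0.37, rho = -0.32, adjusted permutation p = 0.262 and 0.318), and Jun and Junb were at -0.020 (rho = -0.020, adjusted permutation p = 0.941 and 0.938). Outside the members, the genes most like Fos by this measure among 11123 genes were Nfkbiz (r = 0.748), Pax6 (0.718) and Med26 (0.711), and those most like Egr1 were Ppfia1 (0.835), Ccn1 (0.824) and Map3k11 (0.781), given as a description over the 24 libraries.

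**Figure D5:**
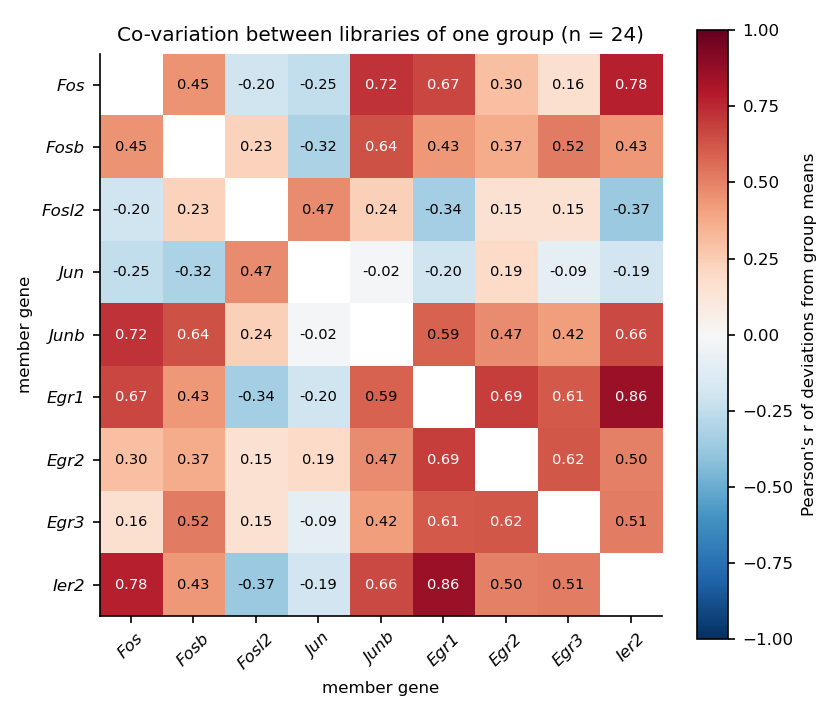
Pearson's r between each pair of the 9 tested members (rows and columns), from deviations of log2 CPM from the group means in 24 libraries, with red for positive and blue for negative values. The highest values join Egr1 and Ier2 (0.86), Fos and Ier2 (0.78), Fos and Junb (0.72) and Egr1 and Egr2 (0.69), while the rows of Fosl2 and Jun hold all 9 negative pairs.

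Genes that work with the members were followed as lists, beside the 30.0% and 54.4% of all genes that changed in Kat6a-/- vs. Kat6a+/+ NSPCs. Of 8 AP-1 partners and relatives, 6 were tested in proliferating NSPCs and 3 were downregulated in Kat6a-/- vs. Kat6a+/+ by limma, at a list median of -0.39. They were Maff, a small MAF factor (log2 fold change -1.23, SE 0.24, FDR = 0.00247), Atf3, a stress-induced repressor (log2 fold change -2.16, SE 0.49, FDR = 0.00566), and Jund, the third JUN gene (log2 fold change -0.40, SE 0.095, FDR = 0.00741). In differentiating NSPCs 4 of 7 were upregulated and 2 downregulated at a median of 0.68, with Maff at 2.86 (FDR = 0.000130), Jund at 0.68 (FDR = 0.000103), Jdp2 at -0.52 (FDR = 0.000227) and Batf3 at -2.20 (FDR = 0.000854). Of 11 AP-1 target genes 5 were too low to be tested in differentiating NSPCs, and the 6 that were tested were upregulated in Kat6a-/- at a median of 2.53, among them the urokinase receptor gene Plaur (log2 fold change 4.93, SE 0.72, FDR = 0.000147), its ligand Plau (2.51), the protease inhibitor gene Timp1 (2.55) and Cd44 (1.82). In proliferating NSPCs 2 of 5 were downregulated, Plaur at -1.44 and Hmga1, a chromatin protein gene, at -1.28 (FDR = 1.30e-05). In the interaction fit, in which 6.36% of all genes passed in this direction, 5 of 6 passed with the more positive effect in differentiating NSPCs. Without Kat6a-/- replicate 1, or without replicate 3, 1 of the 6 target genes was called in differentiating NSPCs, and the AP-1 partners had 1 up and 1 down without replicate 1 and 2 up without replicate 3.

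A list of 38 other immediate early genes was read in the same way. In proliferating Kat6a-/- vs. Kat6a+/+ NSPCs 8 of 36 tested were downregulated and none upregulated at a median of -0.26. The counts moved with single libraries, to 5 downregulated without Kat6a-/- replicate 1 or 3 or Kat6a+/+ replicate 4, to 10 without Kat6a-/- replicate 4 or Kat6a+/- replicate 3 and to 11 without Kat6a+/+ replicate 3. With Kat6a-/- replicate 1, Kat6a+/+ replicate 2 or Kat6a+/- replicate 2 or 3 left out, 1 or 2 were upregulated. The median without Kat6a-/- replicate 4 was -0.41. The smallest p among them belonged to Klf4 (log2 fold change -1.65, SE 0.25, FDR = 0.000544), Phlda1 (-0.86), Klf6 (-0.60) and the clock gene Per1 (-0.95). In differentiating NSPCs 24 of 37 were upregulated and 5 downregulated at a median of 1.07. Here the smallest p belonged to Hbegf, a ligand of the EGF receptor (log2 fold change 2.02, SE 0.17, FDR = 4.39e-06), Ier3 (2.39), the orphan receptor gene Nr4a3 (-2.02) and Klf2 (3.16). The interaction passed for 11 of 38, all with the more positive effect in differentiating NSPCs, beside 13.9% of all genes in either direction and 6.36% in this direction. With Kat6a-/- replicate 1 left out 4 were called up and 1 down in differentiating NSPCs at a median of 0.46, with replicate 3 left out 2 and 1 at a median of 0.43, and with replicate 2 or 4 left out 27 and 5. Of the EGR relatives and NAB co-repressors, which bind EGR proteins, Nab1 was downregulated in both conditions (-0.23, limma FDR = 0.0422, and -0.17, FDR = 0.0122) and Nab2 upregulated when differentiating (log2 fold change 0.70, SE 0.18, FDR = 0.00531). Without Kat6a-/- replicate 1 or 3 of the differentiating libraries neither was called there, and Nab1 was not called there without Kat6a+/+ replicate 1. The call of Nab1 in proliferating NSPCs was lost without any 1 of the Kat6a-/- or Kat6a+/+ libraries, and without Kat6a+/- replicate 1 or 2.

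Among 12 SRF, TCF and CREB regulators, which act upstream at the CArG box and CRE, 2 were upregulated and 3 downregulated in proliferating Kat6a-/- vs. Kat6a+/+ NSPCs. These included Crtc1 (log2 fold change 0.58, SE 0.11, FDR = 0.00217), Mrtfa (-0.35), Elk3 (0.24) and Crtc3 (-0.26). When differentiating, 7 were upregulated and 3 downregulated, including Creb1 (log2 fold change -0.60, SE 0.052, FDR = 4.31e-06), Elk3 (0.61), Crtc1 (-0.42) and Mrtfb (0.54). Of 25 growth factor receptors and MAP kinases, 4 rose and 4 fell when proliferating, with Mapk10, a JNK gene, at 2.15 (limma FDR = 0.00457), Fgfr2 at 0.86, Fgfr3 at -1.38 and Hras at -0.24, and 7 rose and 7 fell when differentiating, with Fgfr1 at 0.75, Mapk3, which encodes ERK1, at 0.64, Rps6ka4 at 0.63 and Fgfr3 at -0.72 (FDR of at most 0.000125). The medians of this list, like those of all genes, lay within 0.05 of 0. Without differentiating Kat6a-/- replicate 1 or replicate 3, 1 of the 12 regulators was called, and of the receptors and kinases 3 and 2 were called, all upregulated. Without Kat6a+/+ replicate 1 or 3, 4 regulators were upregulated, and without Kat6a+/+ replicate 3, 4 receptors and kinases were downregulated. With any 1 of the proliferating Kat6a-/- or Kat6a+/+ libraries left out, 2 to 4 regulators and 3 to 6 receptors and kinases were called in proliferating NSPCs.

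The 12 ERK feedback genes, which dampen ERK signalling or are switched on by it, moved more. They fell with differentiation in Kat6a+/+ NSPCs in 11 of 12 cases, at a median log2 fold change of -3.01, beside 36.2% of all genes that were lower. In Kat6a-/- vs. Kat6a+/+ NSPCs 5 rose and 2 fell when proliferating (median 0.15), with the ERK phosphatase gene Dusp6 at 0.83 (SE 0.10, limma FDR = 0.000142), Spred3 at 0.43, Etv4 at 0.33 and Etv1 at 0.28. The counts were 3 and 0 without Kat6a-/- replicate 1 or Kat6a+/+ replicate 2, 2 and 2 without Kat6a-/- replicate 4, and between 3 and 6 up and 0 and 2 down without another Kat6a-/- or Kat6a+/+ library. When differentiating, 11 rose and 1 fell (median 1.36), with Spry2 at 1.36 (SE 0.14, FDR = 1.67e-05), Dusp6 at 2.76, Spred2 at 0.92 and Spred1 at 0.87. None of the 12 was called in differentiating NSPCs without Kat6a-/- replicate 1, when the median was 0.66, and none without replicate 3, when it was 0.60. Their summed level was 335 to 599 CPM in Kat6a+/+ and 351 to 1548 CPM in Kat6a-/- differentiating libraries.

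Markers of other cell types moved with the genotype as well, and their part in the results above was not tested. In proliferating Kat6a-/- vs. Kat6a+/+ NSPCs the astrocyte markers had 4 higher and 0 lower of 6 tested and a summed level of 1183 to 2103 CPM against 703 to 879.8 CPM, with S100b at 2.23, Slc1a2 at 2.36, Slc1a3 at 0.91 and Gfap, which stayed at or below 6.57 CPM, at 3.51. The neural stem cell markers had 1 higher and 2 lower of 7 tested (Fabp7 0.44, Nes -0.36, Prom1 -1.08), the neuron markers 1 higher and 3 lower of 7 tested (Map2 0.25, Tubb3 -1.19, Rbfox3 -1.78, Elavl4 -0.62) and the oligodendrocyte lineage markers 1 higher and 0 lower of 5 tested (Olig1 0.26). With 1 library left out the neural stem cell markers had 1 to 4 calls, the neuron markers 2 to 4 and the oligodendrocyte lineage markers 0 or 1. P2ry12 was the microglial marker that was tested, at 2.51 in proliferating Kat6a-/- NSPCs, where the summed level of the list was 6.38 to 8.38 CPM against 1.27 to 1.41 CPM in Kat6a+/+.

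In differentiating Kat6a-/- vs. Kat6a+/+ NSPCs the mesenchymal and meningeal markers had 4 higher and 0 lower of 4 tested, namely Col1a1 at 5.19, Col1a2 at 3.02, Foxc1 at 1.37 and Pdgfrb at 0.97, and their summed level was 43.4 to 277 CPM against 32.8 to 66.3 CPM. None of the 4 was called without Kat6a-/- replicate 1 or without replicate 3. Col1a2 was at -0.065 without replicate 3. The neural stem cell markers had 2 higher and 3 lower of 7 tested (Nes 1.04, Sox2 -0.80, Fabp7 -0.90, Hes5 -4.58) and the neuron markers 1 higher and 4 lower of 8 tested (Dcx -4.51, Elavl4 -3.98, Snap25 -3.00, Stmn2 2.44). The astrocyte markers had 1 higher and 3 lower of 7 tested, with S100b at 2.33, Aldh1l1 at -1.31, Slc1a3 at -0.27 (0.057 without Kat6a-/- replicate 1 and 0.11 without replicate 3) and Aqp4 at -1.61, the last of which was positive without Kat6a-/- replicate 1 (0.58) or 3 (0.80), in edgeR (1.31, FDR = 0.345) and in DESeq2 (1.32, FDR = 0.326). The oligodendrocyte lineage markers had 1 higher and 4 lower of 5 tested (Cspg4 2.10, Pdgfra -2.28, Olig2 -0.71, Olig1 -0.42), with Sox10 at or below 2.64 CPM in every library. Of the endothelial markers only Kdr was tested, at -2.52, and the summed level was 10.6 to 36.8 CPM against 46.4 to 72.9 CPM. No microglial or blood cell marker passed the filter in differentiating NSPCs, where their sum was at most 1.81 CPM. Without differentiating Kat6a-/- replicate 1 or replicate 3 the neural stem cell and oligodendrocyte lineage markers each had 1 call, the astrocyte markers 1, the neuron markers 2 and 1, and the endothelial markers 0. Without Kat6a+/+ replicate 1 the oligodendrocyte lineage markers had 1 higher and 1 lower and the astrocyte markers 1 and 1, whereas 4 or 5 astrocyte markers were called in proliferating NSPCs whichever Kat6a-/- library was left out.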

How the data were processed

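RNA of NSPCs from 24 libraries was sequenced by the authors from a stranded mRNA kit. Per the labels and the study's methods, reads were aligned to mm39 with Rsubread, and the deposited counts per gene come from featureCounts with a strict RefSeq annotation; versions and the strand setting are not given in the sources used here. Each deposited table holds raw whole-number counts for 26411 genes together with gene identifiers, symbols and lengths. A RefSeq table (GRCm38.p6) gave a biotype for 26359 genes, of which 21030 were protein-coding, and the promoter sequences, with entries for 6 members and none for Fosl1, Egr1, Egr3 and Ier2. No coordinates were moved between builds.

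Protein-coding genes passing filterByExpr were scaled by TMM in edgeR 4.0.16 and tested with limma 3.58.1 in R 4.3.3, with robust empirical Bayes, Benjamini-Hochberg adjustment over all genes tested and a false discovery rate (FDR) under 0.05 as the threshold. As in the study, proliferating NSPCs were fitted with limma-voom and litter as a random block (5 litters, within-litter correlation 0.287), and differentiating NSPCs (7 litters) with limma-trend on log2 CPM (prior count 2) and library quality weights. For condition and interaction effects, the 24 libraries were fitted together by limma-voom, again with the litter block (correlation 0.00365). Levels are CPM over TMM-scaled totals, and RPKM divides these by the gene length given in the tables. Correlations used deviations from the 6 group means with 100000 permutations within groups (numpy 2.4.6), adjusted over 36 pairs and taking libraries as independent. Figures were drawn with matplotlib 3.10.9.

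Groups were taken from the labels. Each library is an embryo named in the labels, and p-values measure the spread between these libraries. Between libraries of the same group chi-square divided by its degrees of freedom was at least 5.55, so no library appeared to be deposited more than once within a group. Libraries of different groups were not compared in this way. Same-numbered libraries did not deviate together (correlations of -0.47 to 0.48, with no comparison over 0.1 in all 4 pairs), so the replicate numbers were not taken as pairs.

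The members and gene lists were chosen with earlier results of these data known, and so no list is independent evidence. Named genes were the members in both Kat6a-/- vs. Kat6a+/+ comparisons, the called members (otherwise the 2 with the smallest p) elsewhere, the 4 called genes with the smallest p of each list, and the 3 genes most alike Fos and Egr1 with a mean CPM of at least 5. Fosl1 failed the filter, and genes alike it were not sought. Alternatives were edgeR's quasi-likelihood test, DESeq2 1.42.0, no filter, unscaled library totals, other uses of litter, embryo (6 labels occur in both conditions), quality weights and replicate number, litter labels 4346 and 4364 counted as 1 litter and a term for Y-linked reads over 100 CPM (both chosen after seeing the data) and leaving out each library. The fits were tested on simulated data. Floors of 3 reads cover counting error only.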

Additional observations from a re-analysis of the deposited data

Results flagged for a closer look

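In proliferating Kat6a-/- NSPCs, Fosl2 stood at 21.3 CPM in replicate 4, apart from the other 3 libraries at 10.5 to 12.2 CPM. In differentiating Kat6a+/+ NSPCs, Fosl2 stood at 112.1 CPM in replicate 2, against 37.9 to 44.6 CPM in the others. Egr3 was at 3.71 CPM in proliferating Kat6a+/- replicate 4, below the other 3 libraries. These 3 of 51 groups of 4 libraries held a library that stood apart by Dixon's criterion, which chance gives in about 1 in 20 groups, or 2.55 of 51.

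The effect of Kat6a-/- on the log2 scale differed between differentiating and proliferating NSPCs for Fosl2 (by 2.79), Jun (by 1.29) and Junb (by 1.63), as tested by the interaction in limma.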

How the results depend on the processing

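The members called for condition and for the interactions kept their calls and directions under each alternative run, and the one gained outside the fits with a library left out was Fosl1, which was called lower in differentiating Kat6a+/+ NSPCs with no filter. In differentiating Kat6a-/- vs. Kat6a+/+ NSPCs the number of genes called rested on the method and on 2 libraries, with 7258 genes in limma as reported, 3261 in edgeR, 4076 in DESeq2, 3097 without quality weights, 1785 with litter as a fixed term, 1212 without Kat6a-/- replicate 1 and 939 without replicate 3. Unscaled library totals moved the median of all genes there from -0.016 to -0.17 and the calls from 3562 up and 3696 down to 2635 and 5669. In differentiating Kat6a-/- vs. Kat6a+/- NSPCs the split went from 2545 and 2462 to 1869 and 4030, and in the interaction from 865 and 1030 to 531 and 1869. Shallow counts limit Fosb, Fosl1 and, in differentiating NSPCs, Egr3.

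The number of members called in proliferating Kat6a-/- vs. Kat6a+/+ NSPCs was 1 as reported, 2 in edgeR and in DESeq2, 0 with litter as a fixed term and 1 to 2 with a library left out. In differentiating NSPCs it was 5 as reported, 3 with litter as a fixed term and 1 to 7 with a library left out. Against Kat6a+/- NSPCs the 2 members called when differentiating became 1 in edgeR, without quality weights and with the term for Y-linked reads, 0 with litter as a fixed term and 0 to 4 with a library left out, and the 0 called when proliferating became 0 to 1. In differentiating Kat6a+/- vs. Kat6a+/+ NSPCs the 0 called became 0 to 3, and for condition in Kat6a-/- NSPCs the 5 called became 5 to 6. The highest counts with a library left out in the comparisons of genotypes in differentiating NSPCs include Egr3. It passed the filter in those fits only through the Kat6a-/- libraries. With a replicate block, which pairs libraries by number only, the members called were 1 in proliferating and 6 in differentiating Kat6a-/- vs. Kat6a+/+ NSPCs, the extra gene being Fosb (1.06, limma FDR = 0.0448).

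Some log2 fold changes changed sign under another method or model, and the cause was not tested. In proliferating Kat6a-/- vs. Kat6a+/+ these were Fos at 0.057 (edgeR), 0.037 (DESeq2) and 0.013 (no litter block), Fosb at 0.29 (edgeR) and 0.31 (DESeq2), Egr1 at 0.036 (edgeR), 0.032 (DESeq2), 0.17 (no litter block), 0.067 (replicate block) and 0.26 (Y-linked reads as a fixed term) and Egr3 at -0.18 (edgeR), -0.19 (DESeq2) and -0.093 (replicate block). In proliferating Kat6a+/- vs. Kat6a+/+ these were Fosl2 at 0.32 (litter as a fixed term) and Junb at 0.053 (edgeR), 0.049 (DESeq2) and 0.044 (no litter block). In proliferating Kat6a-/- vs. Kat6a+/- these were Egr2 at -0.035 (litter as a fixed term). In differentiating Kat6a-/- vs. Kat6a+/+ these were Ier2 at 0.036 (Y-linked reads as a fixed term) and Aqp4 at 1.31 (edgeR) and 1.32 (DESeq2). In differentiating Kat6a+/- vs. Kat6a+/+ these were Egr1 at -0.028 (replicate block) and Egr2 at 0.00050 (edgeR), 0.0052 (DESeq2), 0.62 (litter as a fixed term), 0.063 (no library quality weights) and 0.21 (Y-linked reads as a fixed term). In differentiating Kat6a-/- vs. Kat6a+/- these were Fosb at -0.074 (Y-linked reads as a fixed term) and Egr2 at -0.083 (Y-linked reads as a fixed term). In differentiating vs. proliferating Kat6a-/- these were Fosb at -0.048 (edgeR) and -0.017 (DESeq2). In the interaction for Kat6a-/- these were Ier2 at 0.059 (edgeR), 0.053 (DESeq2), 0.054 (replicate block within genotype) and 0.0081 (Y-linked reads as a fixed term). In the interaction for Kat6a+/- these were Egr1 at -0.0050 (library quality weights added). With 1 library left out, signs changed within these ranges in proliferating Kat6a-/- vs. Kat6a+/+ (Fos -0.43 to 0.22, Fosb -1.59 to 0.39, Egr1 -0.31 to 0.34, Egr3 -0.46 to 0.28 and Ier2 -0.32 to 0.038), proliferating Kat6a+/- vs. Kat6a+/+ (Fosl2 -0.44 to 0.18, Junb -0.21 to 0.19 and Egr1 -0.65 to 0.094), proliferating Kat6a-/- vs. Kat6a+/- (Fos -0.19 to 0.49, Fosb -0.81 to 1.35, Egr2 -0.23 to 0.25 and Ier2 -0.13 to 0.22), differentiating Kat6a-/- vs. Kat6a+/+ (Egr2 -0.49 to 0.44, Ier2 -0.20 to 0.030, Aqp4 -1.96 to 0.80, Slc1a3 -0.36 to 0.11 and Col1a2 -0.065 to 3.92), differentiating Kat6a+/- vs. Kat6a+/+ (Egr1 -0.28 to 0.68 and Egr2 -0.40 to 0.053), differentiating Kat6a-/- vs. Kat6a+/- (Fos -0.049 to 0.74, Fosb -0.14 to 0.69 and Egr2 -0.29 to 0.55), differentiating vs. proliferating Kat6a-/- (Fosb -0.31 to 1.58 and Jun -0.0091 to 0.21), the interaction for Kat6a-/- (Ier2 -0.28 to 0.13) and the interaction for Kat6a+/- (Junb -0.088 to 0.34 and Egr1 -0.056 to 0.81). With the exception of Aqp4, Slc1a3 and Col1a2 in differentiating Kat6a-/- NSPCs, no gene whose sign changed was called as reported.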
